A study of Homo sapiens with 6 samples.

Results

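The 7 genes described here encode the cyclin-dependent kinase (CDK) inhibitors of the CIP/KIP family (CDKN1A, CDKN1B and CDKN1C, for p21, p27 and p57) and of the INK4 family (CDKN2A, CDKN2B, CDKN2C and CDKN2D, for p16, p15, p18 and p19). They were taken by gene symbol from a table of 35554 genes, and all 7 were among the 19711 genes tested. RNA was sequenced from parental LNCaP cells, an established androgen-dependent line grown from a metastatic prostate carcinoma, and from LNCaP-enzaR cells, which were selected from that line by long culture with enzalutamide, a drug against androgen signalling, and then kept on a lower concentration of it. Each line was harvested from 3 flasks below confluence. Nothing says that the flasks came from separate passages, so that p-values measure the spread between these flasks, which may be technical. Each line has a single culture history, and neither its labels nor its protocol state if enzalutamide was present at harvest, so that drug exposure, growth and lasting resistance cannot be told apart. The comparison asks how the transcripts of these brakes on the cell cycle differ between the resistant and the parental line.

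CDK inhibitors are small proteins that slow the passage from G1 into S phase. INK4 proteins bind CDK4 and CDK6 and keep them from D-type cyclins, so that the retinoblastoma protein stays unphosphorylated and holds E2F factors. CIP/KIP proteins bind whole cyclin-CDK complexes and inhibit CDK2 above all. Much of the control of p27 lies in the destruction of the protein, which RNA counts do not show. In bulk RNA, fewer cells that express a gene and less RNA per cell cannot be told apart.

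Libraries held 77759122 to 98616465 counts. LNCaP-enzaR library 1 stood apart from its group, with a chi-square per degree of freedom of 39.8 and 31.4 against libraries 2 and 3, which had 7.42 against each other, where parental pairs had 5.88 to 9.82. Without it the same 5 inhibitors passed the threshold given below, with log2 fold changes of 1.31 for CDKN1A, −0.78 for CDKN1B, 0.65 for CDKN1C, 3.00 for CDKN2B and −0.78 for CDKN2C. Transcripts of the mitochondrial genome took 6.72% to 7.06% of the counts in parental and 14.7% to 15.5% in LNCaP-enzaR libraries. With these transcripts left out the same 5 of the 7 inhibitors passed the threshold given below, and the log2 fold changes of CDKN2B and CDKN1B were 3.06 and −0.81. The 6 luminal prostate markers reported here were present, at a summed level of 3183 to 3244 CPM (counts per 1000000 TMM-scaled counts) in parental and 2804 to 3076 CPM in LNCaP-enzaR libraries, each with at least 7520 counts in every library. Markers of other cells were low: summed levels were 0.433 to 1.71 CPM for 3 basal, 7.22 to 16.3 for 5 fibroblast, 0.0340 to 0.174 for 3 immune and 3.93 to 6.10 for 3 endothelial genes. Those above 1 CPM in any library were KRT14, COL1A1, LUM, PDGFRB and VWF, while KRT5, TP63, COL1A2, CD3E and CDH5 had at most 3 counts.

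The 7 inhibitors did not move together. Calls required at least a 1.5-fold difference together with an adjusted p no higher than 0.05 (edgeR quasi-likelihood test, Benjamini-Hochberg over all genes tested). CDKN2B, CDKN1A and CDKN1C were higher in LNCaP-enzaR past it, CDKN1B and CDKN2C were lower past it, and CDKN2A and CDKN2D were lower by less than 1.5-fold. That is 5 of 7 genes, where 42.7% of all genes tested were past the threshold, 23.3% higher and 19.5% lower. By the adjusted p alone, at any fold, all 7 inhibitors differed, 3 higher and 4 lower, as did 66.3% of all genes, 33.5% higher and 32.8% lower. For CDKN2A and CDKN2D this last call was lost in 3 and 5 of 15 alternative fits. Both families held changes in each direction: 2 CIP/KIP genes rose and 1 fell, and of the INK4 genes 1 rose, 1 fell and 2 were not past the threshold.

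**Figure D1:**
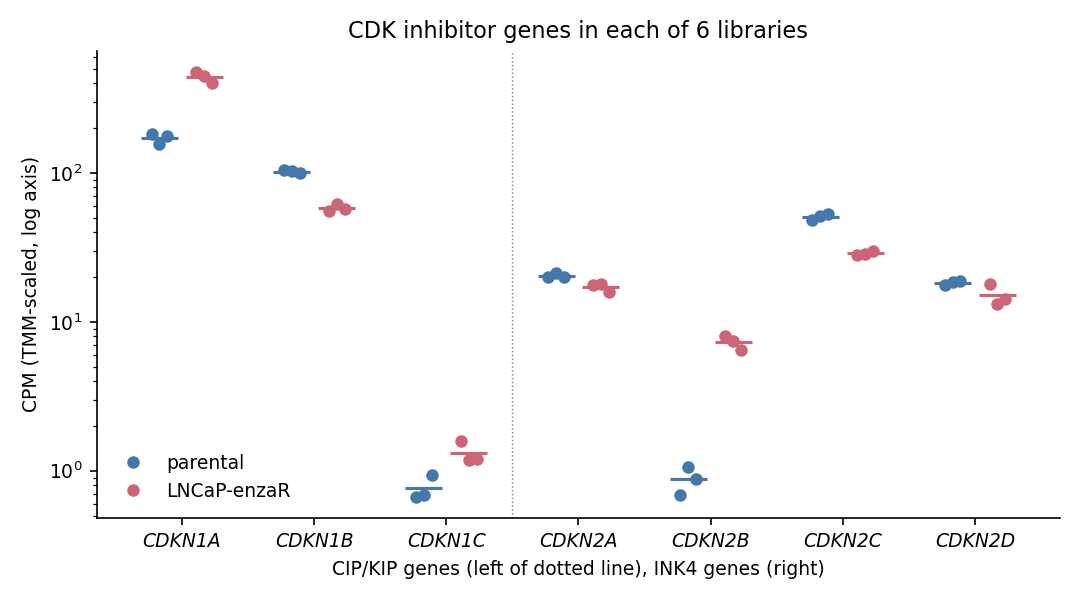
CPM on a log axis for each of the 7 genes in the 3 parental (blue) and 3 LNCaP-enzaR (red) libraries, with a bar at the mean. The libraries of the lines are apart for every gene but CDKN2D, and CDKN1A is the most abundant gene in both lines by CPM.

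CDKN1A (p21, ENSG00000124762.14, chromosome 6, 36676460 to 36687337, GRCh38) was the most abundant inhibitor before the comparison and more so after it. Parental libraries 1 to 3 held 183, 156 and 177 CPM, and LNCaP-enzaR libraries 477, 447 and 403 CPM. The lowest resistant library thus lay well above the highest parental one, and the mean went from 172 ± 14.6 to 442 ± 37.6 CPM (SD, n = 3 each). The log2 fold change was 1.36 (SE 0.074, edgeR adjusted p = 8.20e-10), or 2.57-fold, and 87.5% of all genes tested had a lower one. At least 13893 counts stood behind each of these values.

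CDKN1B (p27, ENSG00000111276.12, chromosome 12, 12685498 to 12722369) went the other way. Its level was 104, 102 and 100.5 CPM in parental and 55.2, 61.8 and 57.1 CPM in LNCaP-enzaR libraries 1 to 3. No resistant library reached the parental range, and the spread within each line was small. The mean fell from 102 ± 1.76 to 58.0 ± 3.39 CPM (SD, n = 3 each). On the log2 scale the change was −0.82 (SE 0.060, edgeR adjusted p = 2.03e-08). Within a library, where scaling between libraries plays no part, the length-scaled level of CDKN1A was 4.69 to 5.45 times that of CDKN1B in parental cells and 21.8 to 26.7 times in LNCaP-enzaR. This pair of genes was chosen after its values were seen. The ratio itself, but not its change between the lines, depends on the gene length used.

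CDKN1C (p57, ENSG00000129757.15, chromosome 11, 2883213 to 2885775), an imprinted gene expressed mainly from the maternal copy, was low in both lines. It had 62, 62 and 74 counts in parental and 136, 104 and 119 counts in LNCaP-enzaR libraries. In CPM this was 0.670, 0.682 and 0.942 against 1.58, 1.18 and 1.20, so that the lines did not overlap but lay close. Its log2 fold change of 0.79 had the widest error of the 7 genes (SE 0.231, 95% interval 0.29 to 1.29, edgeR adjusted p = 0.00784). The lower end of that interval is under the 1.5-fold limit.

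Promoter sequence is shown for CDKN1A and CDKN1B because these abundant CIP/KIP genes moved apart. Each line gives the 250 bases before a RefSeq transcription start (GRCh38.p14), 5′ to 3′ on the gene's strand, with matches on either strand to the GC box (letters GGGCGG) and the CCAAT box in capitals. The motifs searched were chosen after the values were seen. The windows are chr6:36678464-36678713 (plus strand), and chr12:12717118-12717367 (plus strand). Both lie inside the deposited gene models, which reach further upstream.
CDKN1A: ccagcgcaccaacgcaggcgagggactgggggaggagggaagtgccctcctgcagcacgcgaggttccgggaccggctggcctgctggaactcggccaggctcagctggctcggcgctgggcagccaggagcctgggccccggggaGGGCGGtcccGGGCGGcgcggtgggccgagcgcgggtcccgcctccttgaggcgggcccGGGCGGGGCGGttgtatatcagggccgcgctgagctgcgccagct
CDKN1B: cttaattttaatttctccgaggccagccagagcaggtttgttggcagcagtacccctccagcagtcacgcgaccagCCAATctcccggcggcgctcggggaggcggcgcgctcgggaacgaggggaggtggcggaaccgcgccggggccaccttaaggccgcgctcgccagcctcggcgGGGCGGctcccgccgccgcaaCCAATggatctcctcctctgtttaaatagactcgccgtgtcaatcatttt
The CDKN1A window held 4 GC boxes, a pair of which overlap, and no CCAAT box. The CDKN1B window held 1 GC box and 2 CCAAT boxes. Of 35116 RefSeq promoter windows of this length, 42.6% held a GC box and 32.0% a CCAAT box on either strand. A TATA box (letters TATAAA, in 10.7% of all windows) matched in neither window, which says only that these letters are not in it.

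Among the INK4 genes, CDKN2B (p15, ENSG00000147883.12, chromosome 9, 22002903 to 22009305) changed most. This gene is best known as a target of TGF-beta signalling in epithelial cells. Parental libraries held 64, 97 and 69 counts, about as few as for CDKN1C, and LNCaP-enzaR libraries 693, 660 and 645 counts. In CPM it stood at 0.691, 1.07 and 0.878 against 8.03, 7.47 and 6.50. Every resistant library was several times above every parental one, with a mean of 0.879 ± 0.187 in parental and 7.33 ± 0.775 CPM in LNCaP-enzaR (SD, n = 3 each). The log2 fold change was 3.06 (SE 0.160, edgeR adjusted p = 5.43e-10), or 8.34-fold. Among all genes tested, 96.2% had a lower log2 fold change.

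CDKN2A (ENSG00000147889.18, chromosome 9, 21967752 to 21995301) lies 7602 bases from CDKN2B. It encodes p16 and, in another reading frame from another first exon, p14ARF. Counts per gene do not separate these transcripts. Levels were 19.9, 21.3 and 20.04 CPM in parental and 17.7, 17.9 and 15.9 CPM in LNCaP-enzaR libraries. The lines did not overlap, yet the log2 fold change was only −0.25 (SE 0.075, 95% interval −0.41 to −0.09, edgeR adjusted p = 0.00893) and short of the fold limit. The length-scaled ratio of CDKN2B to CDKN2A within a library, a pair chosen after its values were seen, was 0.0338 to 0.0485 in parental and 0.398 to 0.440 in LNCaP-enzaR cells, 9.96 times higher on average. The ratio itself depends on the gene length used, since CDKN2A has 3885 bases in the union of exons but 1052 in its longest transcript. Its change between the lines does not depend on length.

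Sequences are given for CDKN2B and for both RefSeq starts of CDKN2A because these neighbours on chromosome 9 share a region and a strand but not a change. Windows and capitals are as above, on the minus strand, at chr9:22009306-22009555 for CDKN2B and at chr9:21995325-21995574 (upstream) and chr9:21974858-21975107 (downstream, inside the gene model) for CDKN2A.
CDKN2B: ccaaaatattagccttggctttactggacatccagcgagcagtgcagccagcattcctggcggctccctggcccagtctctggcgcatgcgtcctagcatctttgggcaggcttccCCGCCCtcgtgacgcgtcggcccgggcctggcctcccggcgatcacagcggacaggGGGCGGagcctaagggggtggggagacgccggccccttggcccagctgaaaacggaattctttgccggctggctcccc
CDKN2A upstream start: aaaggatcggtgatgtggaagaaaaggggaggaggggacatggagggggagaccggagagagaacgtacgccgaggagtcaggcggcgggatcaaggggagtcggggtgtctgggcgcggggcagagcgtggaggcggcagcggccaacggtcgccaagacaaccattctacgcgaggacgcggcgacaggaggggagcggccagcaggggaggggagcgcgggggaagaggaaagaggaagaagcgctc
CDKN2A downstream start: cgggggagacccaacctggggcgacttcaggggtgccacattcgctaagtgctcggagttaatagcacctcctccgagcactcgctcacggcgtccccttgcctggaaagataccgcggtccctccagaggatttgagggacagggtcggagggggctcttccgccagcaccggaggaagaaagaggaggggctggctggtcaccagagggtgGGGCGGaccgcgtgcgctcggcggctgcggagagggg
GC boxes numbered 2 in the CDKN2B window, 0 in the upstream and 1 in the downstream CDKN2A window, and none of these held a CCAAT box or a TATA box. GC content was 66.4% for CDKN2B and 66.8% for each CDKN2A window, against a median of 58.0% over all windows. CpG dinucleotides numbered 18, 24 and 20, against a median of 11.

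CDKN2C (p18, ENSG00000123080.12, chromosome 1, 50960745 to 50974634) was the most abundant INK4 gene in parental cells by CPM. Its level was 48.5, 51.1 and 53.3 CPM in parental and 28.0, 28.8 and 30.0 CPM in LNCaP-enzaR libraries, with a clear gap between the lines. The mean fell from 50.9 ± 2.40 to 28.9 ± 1.04 CPM (SD, n = 3 each). This was −0.82 on the log2 scale (SE 0.064, edgeR adjusted p = 4.79e-08). CDKN2D (p19, ENSG00000129355.7, chromosome 19, 10566460 to 10569059) had 17.8, 18.5 and 18.8 CPM in parental and 17.9, 13.1 and 14.2 CPM in LNCaP-enzaR libraries. LNCaP-enzaR library 1 lay within the parental range and the other two below it. Its log2 fold change was −0.28 (SE 0.101, 95% interval −0.50 to −0.07, edgeR adjusted p = 0.0233), short of the fold limit. With 1 library left out at a time it ranged from −0.42 (without LNCaP-enzaR replicate 1) to −0.19 (without LNCaP-enzaR replicate 2, edgeR adjusted p = 0.104), and the adjusted p was also over 0.05 without LNCaP-enzaR replicate 3 (0.0904), parental replicate 2 (0.0588) or parental replicate 3 (0.0619). Libraries of the lines did not overlap for 6 of the 7 inhibitors, against 70.6% of all genes tested.

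**Figure D2:**
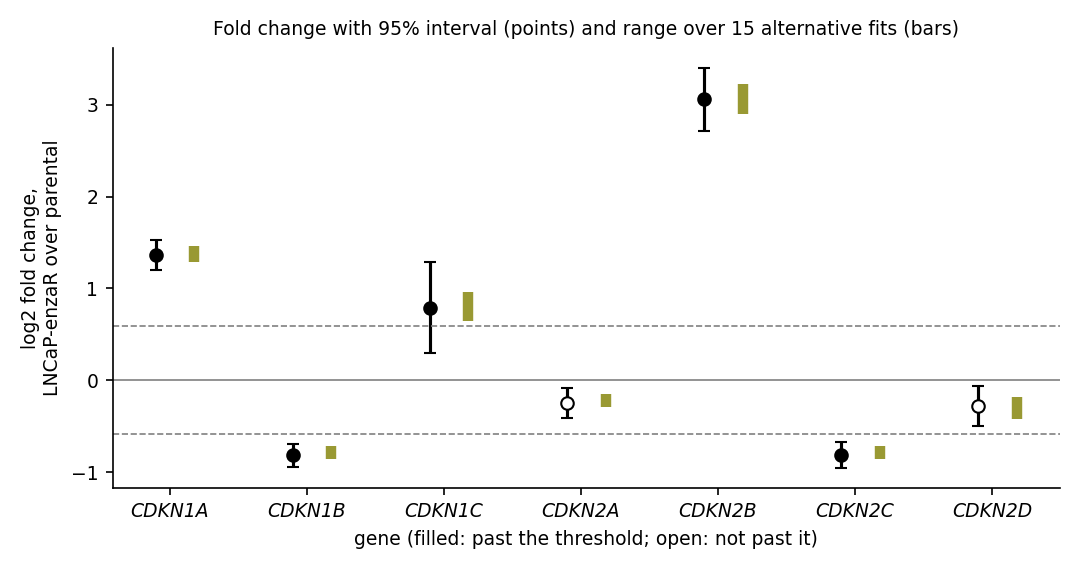
Log2 fold change of LNCaP-enzaR over parental for the 7 genes, with 95% intervals (points) and the range over 15 alternative fits (bars). Dashed lines mark a fold of 1.5, solid points are past the threshold, and no range crosses 0.

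Some of the exonic bases of CDKN2C (20.4%), CDKN2A (15.3%) and CDKN1A (4.87%) lie in exons of a gene on the opposite strand. Whether strand was used in counting is not stated, so that such reads cannot be told apart. For CDKN2A this gene is CDKN2B-AS1, which had 28 to 93 counts per library, where CDKN2A had 1530 to 1942. For CDKN1A it is DINOL, with 0 to 19 counts. For CDKN2C, with the largest overlap, it is ENSG00000290102, for which no counts were at hand. No such overlap was found for the other 4 inhibitors.

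Levels between genes can be compared only per length, here as RPKM (CPM per kilobase of the union of exons). In parental cells the order was CDKN1A (57.4 ± 4.88), CDKN2C (16.9 ± 0.796), CDKN2D (12.2 ± 0.324), CDKN1B (11.1 ± 0.191), CDKN2A (5.26 ± 0.209), CDKN1C (0.308 ± 0.062) and CDKN2B (0.220 ± 0.047 RPKM, SD, n = 3). Neighbours in this order did not overlap in any library, but the order turned with the length used: by the longest transcript it was CDKN1A, CDKN1B, CDKN2A, CDKN2C and CDKN2D. In LNCaP-enzaR it was CDKN1A (148 ± 12.5), CDKN2D (10.02 ± 1.68), CDKN2C (9.58 ± 0.346), CDKN1B (6.27 ± 0.366), CDKN2A (4.42 ± 0.292), CDKN2B (1.83 ± 0.194) and CDKN1C (0.531 ± 0.090 RPKM, SD, n = 3). Of these neighbours, CDKN2D and CDKN2C overlapped. By the longest transcript this order turned too, to CDKN1A, CDKN2A, CDKN1B, CDKN2D and CDKN2C. CDKN2B and CDKN1C changed places at the bottom of the order.

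As a share of the summed RPKM of the 7 genes, which does not depend on scaling between libraries, CDKN1A went from 55.5% ± 2.51 to 81.9% ± 0.832 (SD over 3 libraries of each line). CDKN2C went from 16.4% ± 1.08 to 5.35% ± 0.608, CDKN2D from 11.8% ± 0.677 to 5.55% ± 0.679 and CDKN1B from 10.7% ± 0.506 to 3.49% ± 0.357. CDKN2A went from 5.10% ± 0.428 to 2.45% ± 0.093, and CDKN2B from 0.214% ± 0.054 to 1.02% ± 0.032. CDKN1C was at 0.298% ± 0.054 and 0.294% ± 0.033, though its level rose from 0.308 to 0.531 RPKM. Shares have a fixed total, so that the rise of CDKN1A by itself lowers the others. In level, CDKN2A fell only from 5.26 to 4.42 RPKM and CDKN2D from 12.2 to 10.02 RPKM. With the longest transcript as the length, CDKN2A made up 12.97% and 6.58%, since its longest transcript has 1052 bases against 3885 in the union of exons, and CDKN1B 15.8% and 5.42%. The summed INK4 level was 0.456 to 0.554 of the summed CIP/KIP level in parental libraries and 0.158 to 0.178 in LNCaP-enzaR libraries. Of the means in RPKM, LNCaP-enzaR over parental, the INK4 sum changed 0.748-fold and the CIP/KIP sum 2.25-fold.

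**Figure D3:**
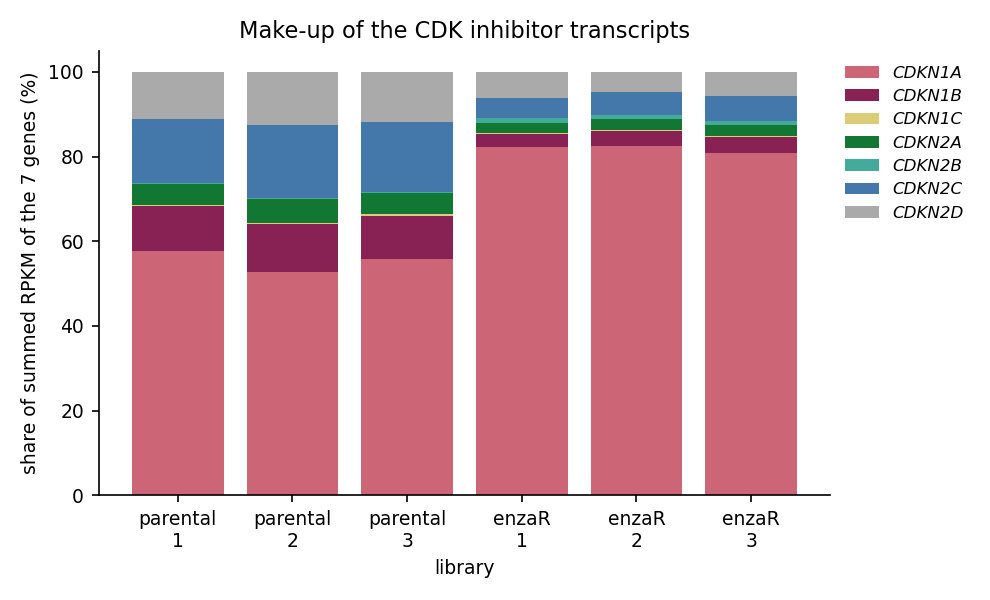
Share of the summed RPKM of the 7 genes (%), stacked by gene, in each of the 6 libraries. CDKN1A takes 52.8% to 57.8% in the parental and 80.9% to 82.4% in the LNCaP-enzaR libraries, while CDKN2C, CDKN2D and CDKN1B take less of this fixed total.

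The inhibitors did not follow their chromosomal neighbours in a common way. Nearest protein-coding genes that passed the filter were compared. On chromosome 9, MTAP, a methionine salvage enzyme that lies 30.1 kb from CDKN2A, fell from 66.7 ± 3.76 to 35.2 ± 3.50 CPM (SD over 3 libraries, log2 fold change −0.92, edgeR adjusted p = 8.47e-08). The antisense RNA CDKN2B-AS1, chosen after its values were seen, went from 0.993 ± 0.181 to 0.427 ± 0.146 CPM (−1.20, edgeR adjusted p = 0.00237). Of the genes tested between MTAP and ELAVL2 that are described here, CDKN2B was the one that was higher, and DMRTA1 on its other side had at most 4 counts. The next tested gene beyond it, ELAVL2, lies 1681 kb away (−0.67, edgeR adjusted p = 0.00204).

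CDKN1B fell between CREBL2 (log2 fold change 0.93) and APOLD1 (1.26), both higher past the threshold, the latter 3.55 kb away. CDKN1A rose between SRSF3, a splicing factor (−1.08), and CPNE5 (1.76, from a mean of 0.238 CPM in parental cells). CDKN1C lies between KCNQ1 (1.19) and SLC22A18 (1.11), which were also higher past the threshold. In the same imprinted region, KCNQ1OT1, a noncoding RNA chosen after its values were seen, went from 3.83 ± 0.168 to 11.1 ± 2.18 CPM (log2 fold change 1.54). KCNQ1OT1 lies within the coordinates of KCNQ1, and overlap of their exons was not examined, so that their counts may not be separate. CDKN2C fell 0.478 kb from FAF1, which was not past the fold limit (−0.35), while RNF11 on its other side rose (0.85). CDKN2D lies between KRI1 (0.03, SE 0.066) and AP1M2 (0.68, past the threshold).

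**Figure D4:**
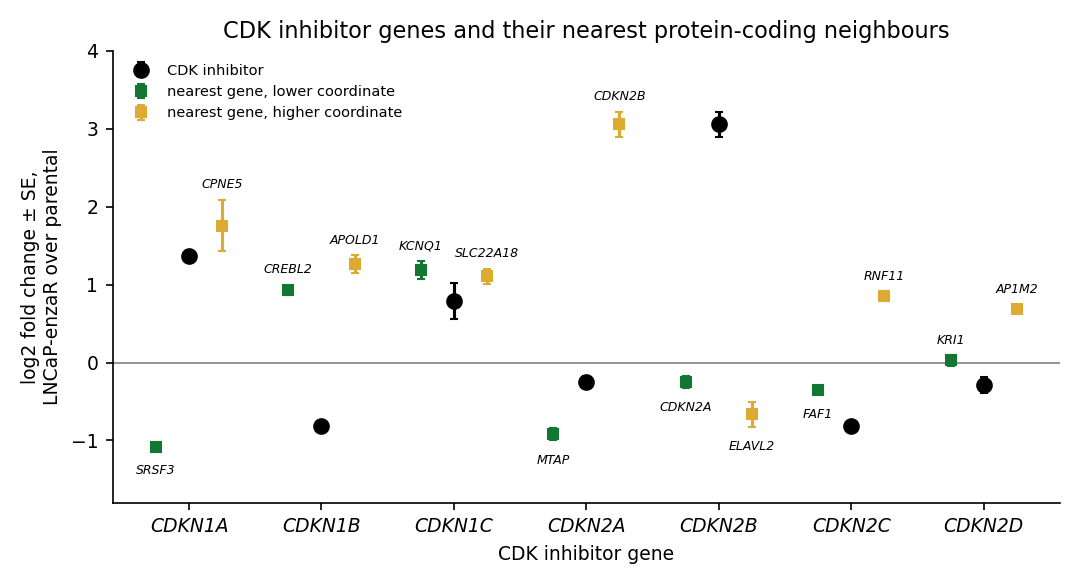
Log2 fold change ± SE of each inhibitor (black) and of the nearest tested protein-coding gene at lower (green) and higher (yellow) coordinates. CDKN1B, CDKN1C, CDKN2C and CDKN2D lie below both neighbours and CDKN2B above both.

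The kinases and cyclins listed here were mostly lower in LNCaP-enzaR. They are clients of the inhibitors and parts of the CDK-activating kinase, such as CCNH. Of 16 listed genes 14 were tested, and 8 of these were lower, 0 higher and 6 not past the threshold, with a median log2 fold change of −0.76 against 0.01 over all genes tested. The called share was 57.1%, against 42.7% of all genes, of which 19.5% were lower. CDK4, bound by INK4 proteins, fell from 162 ± 5.56 to 74.0 ± 5.50 CPM (log2 fold change −1.13, SD over 3 libraries), and CDK6 from 1.76 ± 0.329 to 0.506 ± 0.287 CPM (−1.81). CDK2, the main CIP/KIP client, fell from 68.3 ± 1.21 to 24.4 ± 2.07 CPM (−1.48), and the S-phase cyclin CCNA2 fell by 2.35 on the log2 scale. CCNB2 (−1.90) and CCNE2 (−0.90) fell too, as did CCNH (−0.63), a subunit of the CDK-activating kinase. CCND1 (−0.49), CCNE1 (−0.39) and CCND3 (0.25) did not reach the fold limit. Exons of a gene on the opposite strand cover part of those of CDK4 (44.2%, TSPAN31), CCNE2 (37.1%), CCNH (21.2%), CDK2 (16.8%), CCND1 (10.4%) and CCNA2 (9.24%), and their counts share the limit given above.

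Set against CDK4 or CDK2 within a library, the inhibitors reported here were higher in LNCaP-enzaR, those that had fallen included. This does not extend to all clients. CCND1 (log2 fold change −0.49), for which no ratio was taken, fell less than CDKN1B and CDKN2C (−0.82 each). The length-scaled ratio to CDK4 went from 1.10 ± 0.1002 to 6.19 ± 0.628 for CDKN1A, from 0.212 ± 0.011 to 0.264 ± 0.036 for CDKN1B, from 0.323 ± 0.0064 to 0.403 ± 0.036 for CDKN2C and from 0.234 ± 0.0045 to 0.418 ± 0.044 for CDKN2D (SD, n = 3 each). The libraries of the lines did not overlap in any of these ratios, but the same held, with a higher ratio in LNCaP-enzaR, for 79% of all genes and with a lower one for 6.69%, and CDK4 itself fell. The ratios themselves, but not their change between the lines, depend on the gene length used. Other ratios were chosen after values were seen. CDKN2B to CDK4 went from 0.00421 ± 0.00089 to 0.0769 ± 0.0092 and CDKN2A to CDK4 from 0.101 ± 0.0057 to 0.186 ± 0.021. CDKN1B to CDK2 went from 0.629 ± 0.0026 to 0.9996 ± 0.045, where 85.6% of all genes had a higher and 4.78% a lower ratio to CDK2 without overlap.

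Downstream, the pocket proteins, E2F factors and their partners showed 10 lower, 0 higher and 8 genes not past the threshold of 18 tested (median log2 fold change −0.72). This called share of 55.6% stands against 42.7% of all genes, with 19.5% lower. RB1, the retinoblastoma gene itself, was at 44.6 ± 3.10 and 41.2 ± 6.19 CPM (SD, n = 3 each), and its change of −0.11 on the log2 scale did not pass the test (SE 0.095, edgeR adjusted p = 0.312). E2F1 (−1.22), E2F2 (−2.05), E2F3 (−0.82), E2F7 (−2.32) and E2F8 (−2.85) were lower past the threshold, as were LIN52 (−0.76) and LIN54 (−0.69), subunits of the DREAM complex.

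Of 19 tested genes of the machinery that destroys CIP/KIP proteins, 7 were lower, 1 higher and 11 not past the threshold. The called share of 42.1% was that of all genes (42.7%), of which only 19.5% were lower. The median log2 fold change was −0.41 against 0.01 over all genes tested, and −0.44 to −0.31 over the alternative fits. In 8 of 15 alternative fits 6 instead of 7 were lower. SKP2, the F-box protein that recognises p27, fell from 93.0 ± 4.88 to 32.1 ± 3.70 CPM and its cofactor CKS1B from 66.8 ± 0.245 to 18.4 ± 0.706 CPM (SD over 3 libraries). On the log2 scale these are −1.54 and −1.86. DTL, which directs the destruction of p21 in S phase, changed by −1.64, CDC20 by −1.94, CKS2 by −1.45 and CUL4B, just past the limit at 1.502-fold, by −0.59. RNF123, a ligase for cytoplasmic p27 in G1, was the 1 gene that rose (1.10), and the ligase MDM2 (−0.27) did not reach the fold limit. Opposite-strand exons cover 15.7% of those of RNF123, so that its counts share the limit given above.

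Upstream regulators of the inhibitor genes were mixed. Of 34 tested, 6 rose, 8 fell and 20 were not past the threshold (median −0.25), a called share of 41.2%, near the background. SMAD3, a TGF-beta effector, rose from 11.2 ± 0.222 to 32.2 ± 0.511 CPM (log2 fold change 1.52, SD over 3 libraries). The other TGF-beta genes listed did not pass the threshold: TGFB1 had 0.61 (edgeR adjusted p = 0.470), TGFBR1 −0.26, TGFBR2 0.09, SMAD2 −0.24 and SMAD4 −0.06. CEBPA (2.03) was higher, and KLF4 (−1.18), DNMT1 (−1.35) and EZH2 (−1.68), the Polycomb methyltransferase known to silence the chromosome 9 inhibitors, were lower. Other Polycomb genes of this list, named after their values were seen, did not go one way. CBX7 (1.28) was higher and SUZ12 (−0.64) lower past the threshold. EED (−0.42), BMI1 (−0.31), RNF2 (−0.54) and RING1 (0.12) were not past it. A role of these genes in the change of CDKN2B was not tested. Opposite-strand exons cover 43.9% of those of CEBPA, and exons of other genes on either strand cover 21.6% of those of CBX7.

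Of 19 genes listed as associated with senescence, 12 were tested, of which 5 rose and 6 fell, a called share of 91.7% against 42.7% of all genes. Among genes with at least 10 counts in every library 2 rose and 6 fell, and 3 of the 5 that rose (CCL2, IL1B and MMP1, named after their values were seen) had parental means of 0.0206 to 0.0307 CPM. LMNB1 (−2.56) and HMGB2 (−2.09), whose loss accompanies senescence, fell, and IGFBP5 (−5.06) and BHLHE40 (−1.52) fell as well. TIMP2 (1.62) and GLB1 (0.59), the source of senescence-associated beta-galactosidase, rose, the latter just past the limit at 1.507-fold. With library totals as the scaling, or without LNCaP-enzaR replicate 1, 4 instead of 5 genes of the list rose past the threshold. IL1B had at most 3 counts in each parental library and was at least 5.77-fold higher. The median of −0.57 changed sign over the alternatives (−1.49 to 0.29), so that no direction is given for this list.

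**Figure D5:**
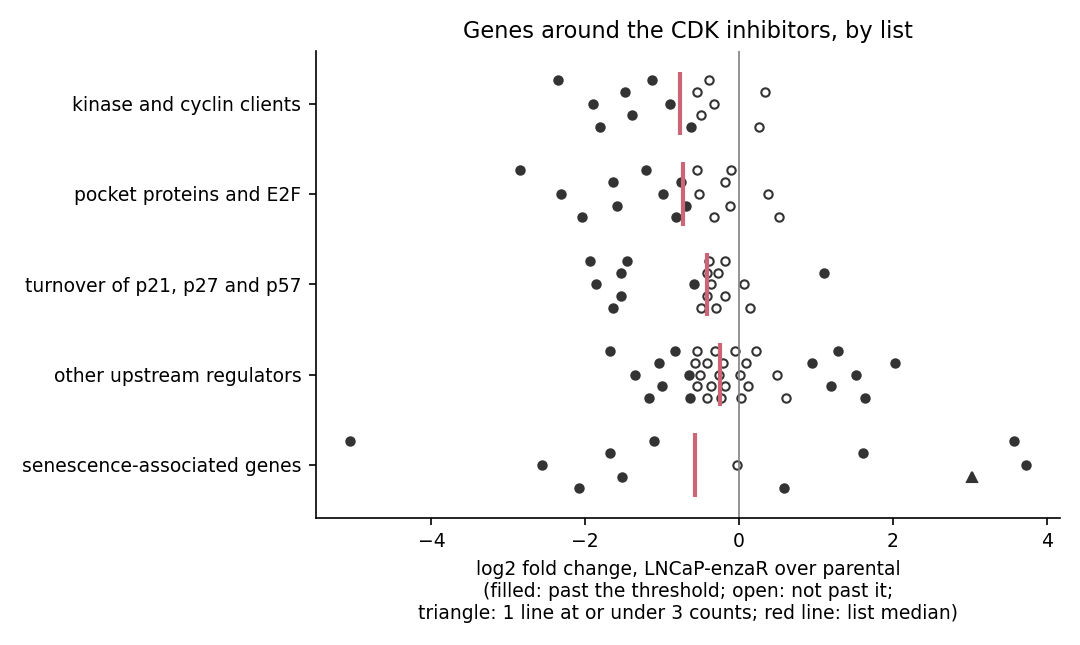
Log2 fold change of each tested gene in 5 lists around the inhibitors, with the list median as a red line and IL1B, whose fitted value is not a bound, as a triangle. Medians lie at −0.76 for kinases and cyclins, −0.72 for pocket proteins and E2F, −0.41 for turnover and −0.25 for upstream regulators.

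Across the 6 libraries, the genes with a mean of at least 5 CPM whose log2(CPM + 0.1) was most like that of CDKN2B were ZDHHC14, RP11-203J24.8 and ARHGEF2 (Pearson r = 0.9998, 0.9997 and 0.9995). For CDKN1B, whose log2 fold change was level with that of CDKN2C and marginally the lowest, they were KIF18A, ARPC2 and CBFB (r = 0.9999, 0.9998 and 0.9998). These are descriptions over 6 libraries of 2 lines, and 671 and 1199 genes had an r above 0.99 with CDKN2B and CDKN1B.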

How the data were processed

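RNA was sequenced from 3 parental LNCaP and 3 LNCaP-enzaR cultures, and group and replicate were read from the sample titles. Per the study's methods, the authors made polyadenylated libraries, trimmed reads with Cutadapt, aligned them to GRCh38 with STAR and GENCODE, and deposited raw counts per gene from featureCounts. Strand and multi-mapping settings are not given in the sources used here.

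The test was that of edgeR (4.0.16, under R 4.3.3), applied to the deposited counts (filterByExpr, TMM, robust quasi-likelihood F-test, no covariates), over 19711 genes. CPM are per 1000000 TMM-scaled counts. In this unit 3 counts, the floor used, were 0.0302 to 0.0382, a limit of counting error only. SD is over 3 flasks, which the titles call biological replicates. Libraries are named by line and replicate number. GENCODE v44, in which all 7 genes have the same coordinates as in the table, gave exon lengths and overlap. RefSeq gave promoter windows, which 6 of the 7 genes matched.

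The members, lists and motifs were chosen with earlier results of these data known. Named genes are the members, their nearest tested protein-coding genes, a fixed set of genes of the lists, the 3 highest and 3 lowest called genes above 1 CPM in each list, and the 3 genes most like CDKN2B and CDKN1B. Genes outside this rule are said to be so. Some genes and a list that this rule covers are not reported here. The fit was tested on simulated data. Alternatives were DESeq2 1.42.0, other scalings, filters and gene sets, a replicate block, leaving out each library, other fold limits and another gene length.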

Additional observations from a re-analysis of the deposited data

How the results depend on the processing

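Each of the 7 inhibitors kept its direction and its side of the threshold in all 15 alternative fits. Log2 fold changes ranged from 1.29 to 1.46 for CDKN1A, −0.86 to −0.72 for CDKN1B, 0.65 to 0.96 for CDKN1C, −0.29 to −0.15 for CDKN2A, 2.90 to 3.23 for CDKN2B, −0.86 to −0.72 for CDKN2C and −0.42 to −0.18 for CDKN2D. The adjusted p exceeded 0.05 in 3 of these fits for CDKN2A (at most 0.0954) and in 5 for CDKN2D (at most 0.130), in both cases highest with upper-quartile scaling, a scaling that shifted the median gene by 0.10 (log2). With a minimum fold of 2, 2 inhibitors were past the threshold (CDKN1A and CDKN2B) and 5561 of all genes. Without a minimum fold 13074 of all genes were, and all 7 inhibitors. Otherwise 5 inhibitors were past the threshold in each alternative, and between 8372 and 8517 of all genes when 1 library was left out.

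With the longest transcript as gene length, the shares in parental and LNCaP-enzaR cells were 50.5% and 78.7% for CDKN1A, 15.8% and 5.42% for CDKN1B, 12.97% and 6.58% for CDKN2A, 0.153% and 0.767% for CDKN2B, 11.7% and 4.04% for CDKN2C, and 8.61% and 4.26% for CDKN2D. The change of length is the cause by construction.

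Libraries that carry the same replicate number showed no common departure from the line means, with correlations of −0.065 to −0.00041 over genes. Whether they shared a passage, harvest or preparation is not stated, and these correlations cannot settle it. Adding the number as a replicate block gave 8212 genes past the threshold, and the log2 fold changes were 1.36 for CDKN1A, −0.82 for CDKN1B, 0.79 for CDKN1C and 3.07 for CDKN2B, and no call among the 7 genes changed.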
